A study of Mus musculus with 3 samples.

Results

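Interferon-stimulated genes are the antiviral and immune genes that cells switch on when they sense type I, II or III interferon, and 39 of them were followed here in resting naive CD4 T cells. The list was drawn up by gene symbol, and all 39 were found by symbol among the 55536 genes of the GENCODE M21 annotation used for the deposited tables. The libraries were made from polyadenylated RNA of naive CD4-positive T cells with the alpha-beta receptor, derived in the thymus and taken as primary cells from 1 male mouse of strain B6.SJL-Ptprca Pepcb/BoyJ at 5 months of age. The labels give no treatment, and they describe the 3 libraries as technical replicates of 1 biological replicate, so there was 1 group and no comparison between groups. Every SD below measures the spread between these 3 libraries and says nothing of the spread between mice.

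Type I interferons signal through the receptor chains IFNAR1 and IFNAR2 and the kinases JAK1 and TYK2 to a complex of STAT proteins with IRF9 that binds interferon-stimulated response elements in promoters. Interferon gamma signals through its own receptor to STAT dimers, which bind gamma-activated sites. The induced genes include sensors of viral nucleic acid, transcription factors that renew the response, and effectors that degrade RNA, edit it, block its translation or damage the compartments in which microbes live. Many of them are also transcribed at a lower level without infection.

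The estimated reads assigned to genes, deposited under the name of expected counts, which can be fractions, came to 14800852 in library 1, 18170786 in library 2 and 17448768 in library 3. T cell markers were abundant, with Cd3e, Cd3g, Trac and Cd4 together at 4039 to 4578 TPM (a level per transcript, corrected for transcript length and for depth). Of the marker lists of other cell types given here, those of 3 types were low in all libraries: their summed levels were 0.12 to 0.70 TPM for myeloid cells (0 of 4 detected), 0.05 to 0.14 for plasmacytoid dendritic cells (0 of 3 detected, Klk1 at 0) and 0.24 to 1.40 for natural killer cells (0 of 3 detected). The 2 CD8 T cell markers summed to 17.0 to 17.4 TPM, almost all of it Cd8b1, while Cd8a was at 0.14 ± 0.05 TPM (SD, n = 3). Erythroid markers summed to 1.20 to 1.55 TPM (1 of 2 detected) and markers of epithelium and stroma to 3.17 to 4.41 TPM (1 of 3 detected). In bulk RNA, fewer cells with a transcript and less of it per cell cannot be told apart. Library 2 stood apart from the others in its content of ribosomal RNA (1.47% of TPM, against 0.575% and 0.635%) and of ribosomal protein genes (9.42% of TPM, against 6.74% and 6.42%).

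Most of the interferon-stimulated genes were transcribed at rest, over a range from below 1 TPM to 433 TPM. At a minimum of 1 TPM in every library, 36 of the 39 were detected (92.3%), against 9823 of 22028 protein-coding genes (44.6%). The 39 were chosen with earlier results of these data known, so their share may not be independent of that choice. The median over the 39 was 20.8 ± 1.20 TPM (SD of the library medians), beside 0.357 TPM over all protein-coding genes and 31.4 TPM over those detected. Of the 39, 7 were at 100 TPM or more in every library, 16 more at 10 TPM or more in every library, 13 at 1 TPM or more in every library but under 10 TPM in at least 1, and 3 (Mx1, Mx2 and Ifi44) were under 1 TPM in at least 1 library. All 39 together took 0.257%, 0.233% and 0.253% of the TPM of libraries 1, 2 and 3.

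By role, the transcription factors had the highest median (106 ± 6.51 TPM over 4 genes, SD of the library medians) and the oligoadenylate synthetase family the lowest (3.80 ± 0.16 TPM over 5 genes). Between them lay the mixed group of other effectors (60.1 ± 2.55 TPM, 7 genes), the GTPases (28.6 ± 2.72 TPM, 7 genes), ISG15 and other protein modifiers (22.5 ± 1.32 TPM, 4 genes), effectors that bind or edit RNA or act on nucleotides (16.0 ± 1.65 TPM, 7 genes) and the nucleic acid sensors (9.87 ± 0.76 TPM, 5 genes). The means spanned more than 10-fold within every role except the oligoadenylate synthetases and the modifiers.

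**Figure D1:**
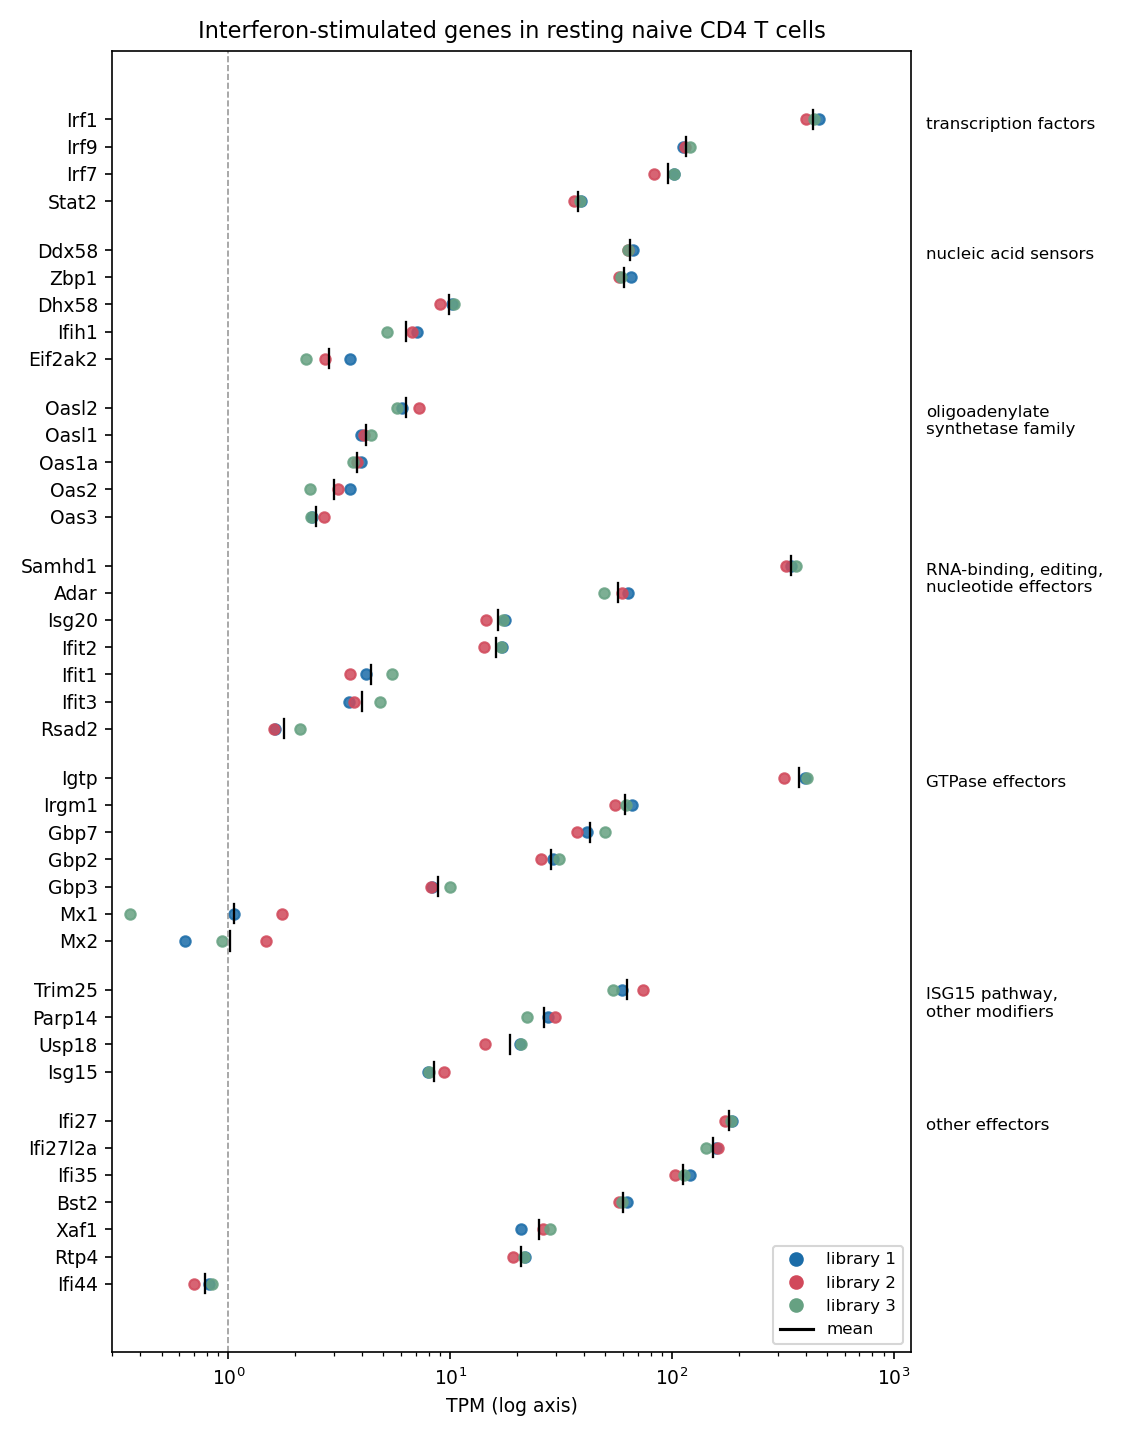
TPM on a log axis (horizontal) of each of the 39 genes (vertical), grouped by role, with 1 point per library, a black tick at the mean of the 3 libraries and a dashed line at 1 TPM. Irf1, Igtp and Samhd1 sit above 300 TPM in every library, the 5 oligoadenylate synthetase genes all lie between 2.33 and 7.23 TPM, and Mx1, Mx2 and Ifi44 straddle or lie under the dashed line.

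The order of the means ran from Irf1 (433 TPM) to Ifi44 (0.787 TPM), and 28 of the 38 pairs of neighbours in that order had overlapping library ranges. Irf1, Igtp and Samhd1 each overlapped the next and lay apart from Ifi27 in the fourth place. Ifi27, Ifi27l2a and then the pair of Irf9 and Ifi35 followed as steps whose ranges did not meet, and Irf7 stood alone below them. From Ddx58 (64.6 TPM) to Stat2 (37.8 TPM) each of the 8 genes overlapped the next, as did those from Gbp2 (28.6 TPM) to Ifit2 (16.0 TPM).

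The letters of the promoters are shown because the complex of STAT proteins with IRF9 described above binds response elements there. Promoter windows of 250 bases before to 50 bases after the start were available for 29 of the 39 genes, from RefSeq on build GRCm38.p6. The core searched was GAAANNGAAA on either strand, where N is any base. It was present in 16 of the 29 genes (55.2%), against 3.99% of the 27025 genes and 3.44% of the 32851 windows in the table. Restricted to the bases before the start it was present in 13 of the 29 (44.8%), against 3.46% of genes and 2.98% of windows, since the matches of Ddx58, Eif2ak2 and Ifih1 lay after the start. The stretches below are the 10 that overlap no annotated exon, written 5′ to 3′ on the strand of the gene, with the matching letters in capitals (where the core lies on the other strand, its letters read TTTC, any 2 bases, TTTC).
Isg15, chr4:156200866-156200905, minus strand: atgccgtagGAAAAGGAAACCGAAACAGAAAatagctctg
Ifit1, chr19:34640780-34640819, plus strand: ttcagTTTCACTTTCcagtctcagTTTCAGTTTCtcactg
Ifit3, chr19:34583373-34583416, plus strand: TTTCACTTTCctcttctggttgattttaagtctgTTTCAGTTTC
Oas1a, chr5:120907526-120907557, minus strand: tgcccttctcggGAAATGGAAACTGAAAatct
Oas3, chr5:120777710-120777749, minus strand: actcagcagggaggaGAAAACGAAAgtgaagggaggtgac
Rsad2, chr12:26456548-26456587, minus strand: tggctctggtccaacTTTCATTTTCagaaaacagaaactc
Bst2, chr8:71537575-71537614, minus strand: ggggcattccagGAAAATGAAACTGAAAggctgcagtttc
Igtp, chr11:58199507-58199546, plus strand: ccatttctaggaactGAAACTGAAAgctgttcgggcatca
Gbp7, chr3:142530268-142530307, plus strand: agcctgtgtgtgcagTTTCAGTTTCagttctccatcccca
Stat2, chr10:128270261-128270300, plus strand: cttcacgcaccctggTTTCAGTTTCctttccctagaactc

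Isg15 held 3 overlapping matches that begin 78, 72 and 66 bases before its start, Oas1a and Bst2 held 2 overlapping matches each, and Ifit1 and Ifit3 held 2 separate ones each. Gbp3 and Irgm1, whose stretches overlap an annotated exon and are not shown, also held 2 overlapping matches each. Resting level did not follow the presence of these letters in a simple way: the 16 genes with the core had a median of 8.63 TPM and ranged from 1.78 TPM (Rsad2) to 375 TPM (Igtp), and the 13 without it had a median of 57.4 TPM and ranged from 0.787 TPM (Ifi44) to 433 TPM (Irf1). A match is a description of letters, and the absence of one says nothing about binding outside this window or to another spelling.

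**Figure D2:**
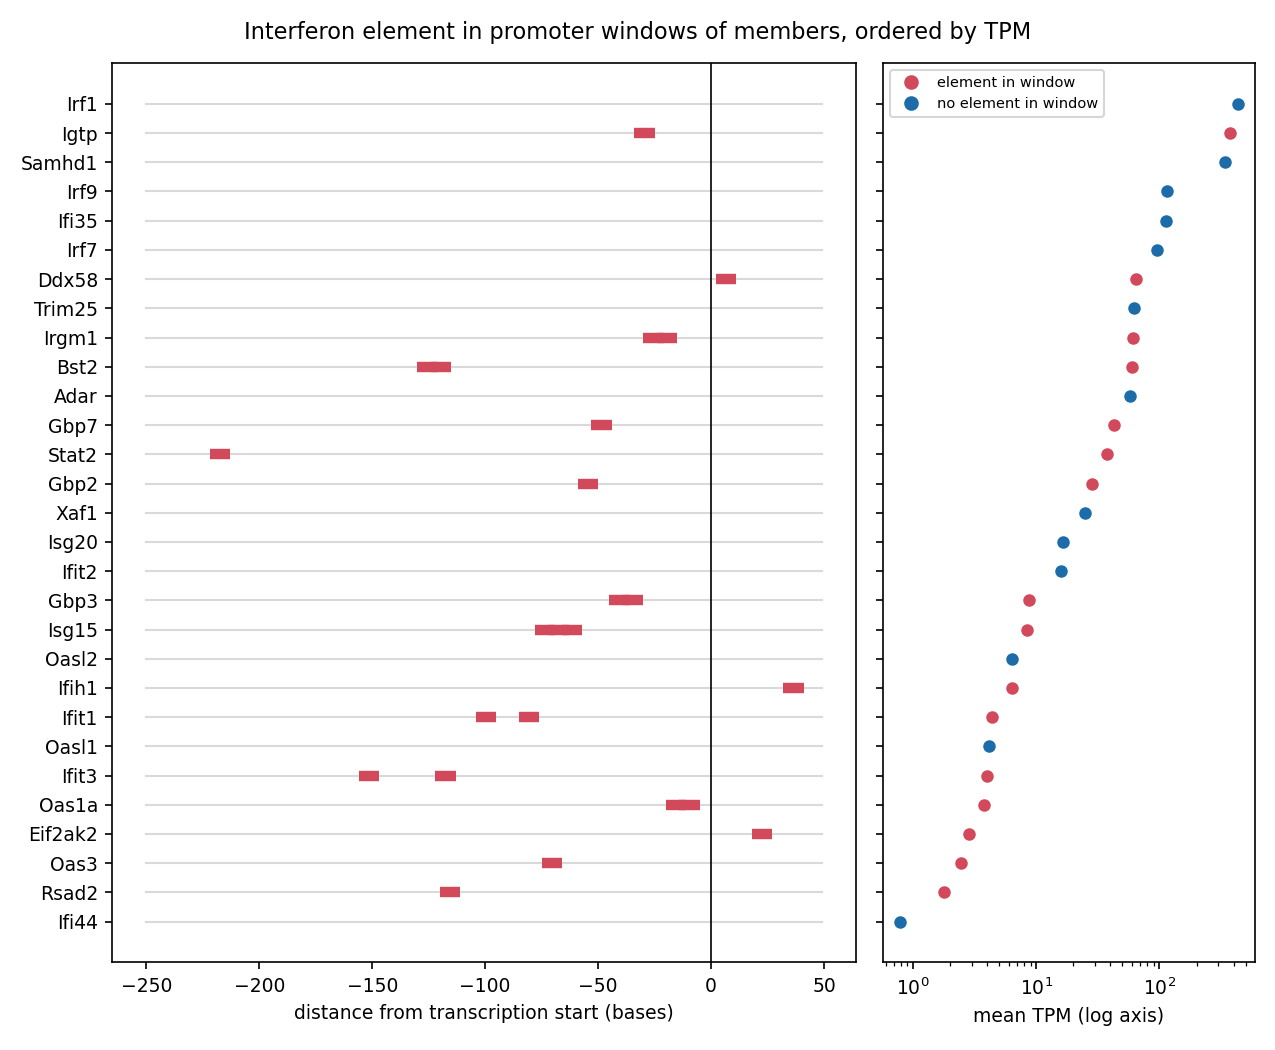
Left, distance from the transcription start in bases (horizontal) of each match to the interferon core (red bars) in the 29 genes with a promoter window (grey lines), ordered by mean TPM; right, mean TPM of the same genes on a log axis, red with a match and blue without. Most matches lie within 160 bases before the start, with Stat2 farther off, and genes with and without a match occur over the whole range of levels.

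The pattern of the gamma-activated site, TTCNNNGAA, reads the same on both strands. It occurred in 11 of the 29 genes (37.9%), against 9.55% of all genes and 8.30% of all windows, and it overlapped the interferon core in 1 of them, Bst2. Irf1, the highest of the 39 genes and one without the interferon core in its window, held this pattern beginning 90 bases before its start, and so did Samhd1, the third highest, at 235 bases before. These distances count from the RefSeq start, which for Samhd1 differs from the end of the GENCODE gene given below. The pattern was not limited to high genes, since Oas1a and Eif2ak2 (3.80 and 2.83 TPM) held it too. The 11 genes with it had a median of 57.4 TPM (2.83 to 433 TPM) and the 18 without it 8.63 TPM (0.787 to 116 TPM), with overlapping ranges. The stretches of Irf1 and Samhd1 are shown as those of the highest genes that lack the interferon core, with the pattern in capitals.
Irf1, chr11:53769909-53769947, plus strand: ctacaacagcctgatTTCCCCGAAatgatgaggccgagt
Samhd1, chr2:157135308-157135346, minus strand: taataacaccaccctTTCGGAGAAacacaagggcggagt

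Among the transcription factors, Irf1, which drives genes of the interferon gamma response, was the most abundant. Irf1 (ENSMUSG00000018899.16, mm10 chromosome 11, 53770014 to 53778374, plus strand) was at 461, 403 and 435 TPM in libraries 1, 2 and 3, a mean of 433 ± 29.2 (SD, n = 3). Irf9, the DNA-binding partner of STAT2, was at 112, 114 and 121 TPM. Irf7, the factor that amplifies type I interferon production, was at 102, 83.1 and 102 TPM, lowest in library 2. Stat2 (ENSMUSG00000040033.16), the lowest of the 4, was at 38.7, 36.3 and 38.5 TPM. Irf1 exceeded Stat2 by 3.51 ± 0.05 on the log2 scale of TPM + 0.1 (SD, n = 3), a pooled ratio of 11.4 (exact 95% interval 11.0 to 11.8, counting error only), and the ranges did not overlap. With counts on the older GENCODE M4 annotation, which carry no length correction, the log2 ratio was 1.14. Irf7 was below Irf9 in each library, by a log2 ratio of -0.28 ± 0.16.

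Not all of the Irf7 signal lay in transcripts that encode the protein. Its most abundant annotated transcript was a retained-intron form of 1922 bases, at 40.0% ± 4.87 of the gene's TPM (SD, n = 3), and protein-coding transcripts took 33.9%, 33.8% and 25.3% in the 3 libraries. In contrast, transcripts annotated as protein-coding held 98.4% ± 0.41 of Irf1, 78.2% ± 4.50 of Irf9 and 70.0% ± 2.93 of Stat2. That annotation also covers short coding sequences, so these shares are not shares of the full-length protein. In Irf1, 13.9% ± 2.15 lay in a transcript of 62 codons, against 329 codons in its most abundant transcript. A share of a gene's TPM given to a transcript is an estimate from reads that mostly fit several transcripts, since the effective lengths in the tables correspond to a read or fragment length of 50 bases.

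The sensors of viral nucleic acid formed a higher and a lower pair around Dhx58. Ddx58, which encodes the RNA sensor RIG-I (ENSMUSG00000040296.15, chromosome 4, 40203773 to 40239828, minus strand), was at 66.8, 63.5 and 63.4 TPM. Zbp1, a sensor of Z-form nucleic acid that can trigger cell death, was at 65.6, 57.6 and 58.9 TPM. These 2 genes overlapped in range, and both lay above the other 3 sensors in every library. Ifih1, which encodes the sensor MDA5 of long double-stranded RNA, was at 7.08, 6.71 and 5.20 TPM, so that Ddx58 exceeded it by 3.34 ± 0.21 on the log2 scale (pooled ratio 10.3, exact 95% interval 9.47 to 11.3). Dhx58, which encodes the related regulator LGP2, averaged 9.87 ± 0.76 TPM. Eif2ak2, the kinase PKR that stops translation on binding double-stranded RNA, was the lowest sensor at 3.52, 2.72 and 2.24 TPM, from 250 counts in all. Its counts scaled for depth were 70.9, 94.1 and 83.9, lowest in library 1, so the order of the TPM was not that of the reads. In library 1, 41.1% of its TPM lay in a transcript of 574 bases without a coding sequence. Its protein-coding transcript was at 1.44, 2.01 and 1.99 TPM.

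The 5 oligoadenylate synthetase genes, whose active products make the messenger that switches on ribonuclease L, were uniformly low. Oasl2 was the highest at 6.05, 7.23 and 5.75 TPM and Oas3 the lowest at 2.37, 2.71 and 2.35 TPM. Oasl1, a related gene whose product lacks the synthetase activity, was at 3.96, 4.10 and 4.39 TPM, below Oasl2 in every library (log2 ratio -0.59 ± 0.21), although the direction turned with the older counts (0.22). Oas1a was at 3.97, 3.80 and 3.64 TPM and Oas2 at 3.53, 3.12 and 2.33 TPM; these ranges did not meet, with a log2 ratio of 0.35 ± 0.24, which also turned with the older counts (-0.97). Oas3 and Oas2 overlapped (log2 ratio -0.25 ± 0.29, and 0.29 with the older counts). The older counts carry no length correction. The expected counts, also without it, came to 209 for Oas1a, 323 for Oas2 and 348 for Oas3, the same order as the older counts. For Oasl1 and Oasl2 they came to 240 and 291, the order of the TPM. In the chi-square test between libraries described further on, 0 of the 5 were called at an adjusted p under 0.05, beside 40.0% of all genes tested. These 5 genes had only 209 to 348 counts each over all libraries, against a median of 382 scaled counts per library over all genes tested. The test had less power for them, so the absence of calls does not show that they were steadier.

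The quantity of Oas1a depends on how reads were divided. Of the 50-base words of its main transcript, 57.6% also occur in a transcript of another gene, and all of those occur in Oas1g. Its expected counts were 62.5, 77.8 and 68.2, none of them whole, and the maximum-likelihood and posterior mean counts differed by up to 3.58 reads (5.73%). The level of Oas1a is therefore uncertain beyond its library spread.

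Among the effectors that act on RNA and nucleotides, Samhd1 was far above the rest. Samhd1, a phosphohydrolase that depletes deoxynucleotides (ENSMUSG00000027639.16, chromosome 2, 157097533 to 157135265, minus strand), was at 344, 325 and 360 TPM, and 57.2% ± 1.47 of it lay in protein-coding transcripts. Adar, which edits adenosine to inosine in double-stranded RNA, followed at 63.1, 59.3 and 49.6 TPM. Isg20, an RNA exonuclease, averaged 16.5 ± 1.67 TPM. Rsad2, which encodes the antiviral enzyme viperin, was the lowest of the 7 at 1.62, 1.61 and 2.11 TPM.

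The 3 genes of the IFIT family, whose products bind foreign RNA ends and block translation, did not share a level. Ifit2 was at 17.1, 14.1 and 16.9 TPM, Ifit1 at 4.19, 3.52 and 5.48 TPM and Ifit3 at 3.50, 3.70 and 4.80 TPM. Ifit2 exceeded Ifit3 by 1.99 ± 0.24 on the log2 scale (pooled ratio 3.96, exact 95% interval 3.43 to 4.61), and its range lay above those of both others. Ifit1 and Ifit3 overlapped, with a log2 ratio of 0.12 ± 0.17. With the older counts that ratio was 1.76 and that of Ifit2 to Ifit3 was 3.57. Ifit3 shares 51.2% of the 50-base words of its transcript with Ifit3b, so its count of 204 in all was partly assigned by estimate, whereas Ifit2 shares none.

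Adar has a long protein form, known to come from an interferon-inducible promoter, and a shorter constitutive one. The transcripts encoding the long form, of 1178 and 1152 codons, took 67.1%, 79.1% and 85.6% of Adar TPM in libraries 1, 2 and 3, a mean of 77.3% ± 9.40 (SD, n = 3). The transcript of 930 codons took 14.8%, 1.55% and 0%, or 9.33, 0.92 and 0 TPM. The posterior mean estimates of that transcript were 10.7, 7.53 and 6.14 TPM, so it was not at 0 in library 3 by that estimate, and the long share was then 64.1%. The end of Adar overlaps Chrnb2 on the opposite strand over 16.8% of its exonic bases, and whether counting used strand is not given in the sources used here, so reads of both genes in that stretch may not be separable. Chrnb2 was not analysed here.

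The GTPase effectors, which assemble on microbial membranes or viral particles, ran from among the highest of the 39 genes to among the lowest. Igtp, an immunity-related GTPase also called IRGM3 (ENSMUSG00000078853.8, chromosome 11, 58199556 to 58207591, plus strand), was at 399, 319 and 405 TPM. Irgm1, from the same family, was at 66.3, 55.1 and 62.0 TPM, and Igtp exceeded it by 2.61 ± 0.09 on the log2 scale (pooled ratio 6.13, exact 95% interval 5.92 to 6.34; log2 ratio 1.52 with the older counts). Both were lowest in library 2.

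The guanylate-binding proteins formed a clear order. Gbp7 was at 41.2, 37.4 and 50.01 TPM, Gbp2 at 29.2, 25.6 and 31.0 TPM and Gbp3 at 8.27, 8.18 and 10.02 TPM, with no overlap between the 3 ranges. On the log2 scale Gbp2 was below Gbp7 by a ratio of -0.58 ± 0.10 and Gbp3 by -2.26 ± 0.07. Gbp3 and Gbp7 share about 5% of their words with each other or other genes (4.79% and 5.19%), and the count of Gbp7 differed by up to 1.95 reads between the maximum-likelihood and posterior mean estimates.

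The Mx genes, whose products block viral nucleocapsids, were at the edge of detection. Mx1 was at 1.06, 1.75 and 0.36 TPM from expected counts of 8, 12.6 and 3.81, and its mean of 1.06 TPM was 2.00 TPM by the posterior mean estimate, under which all 39 genes were detected. Mx2, annotated as a polymorphic pseudogene, was at 0.64, 1.47 and 0.94 TPM from 13.0, 28.8 and 22.9. Their log2 ratio of -0.10 ± 0.96 spread over both signs, and the pooled ratio of 0.942 had an exact 95% interval of 0.564 to 1.53, so no order between them could be read at this depth. Laboratory strains related to C57BL/6 are known to carry a defective Mx1 allele.

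The ISG15 system attaches a ubiquitin-like protein to targets, and the genes for the modifier and for its removal were both at a modest level. Isg15, the modifier, was the lowest of its group at 7.90, 9.38 and 8.01 TPM. Usp18, the protease that removes ISG15 and restrains the type I receptor, was at 20.6, 14.3 and 20.9 TPM. Usp18 lay above Isg15 in every library, by 1.12 ± 0.44 on the log2 scale, with the ratio at 0.61 in library 2 and at 1.37 in each of the others. Trim25, the ubiquitin ligase that acts on RIG-I (ENSMUSG00000000275.16, chromosome 11, 88999376 to 89020293, plus strand), was at 59.4, 74.3 and 54.1 TPM, and Parp14, an ADP-ribosyltransferase, at 27.5, 29.6 and 22.2 TPM.

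Among the other effectors, the related genes Ifi27 and Ifi27l2a were the highest. Ifi27 (ENSMUSG00000064215.13, chromosome 12, 103434211 to 103440239, plus strand) was at 186, 173 and 185 TPM, and Ifi27l2a, its neighbour on the opposite strand, at 157, 161 and 142 TPM. The 2 ranges did not meet and the log2 ratio was 0.24 ± 0.14 (1.42 with the older counts). The most abundant Ifi27 transcript was a retained-intron form (39.3% ± 4.18), and protein-coding transcripts took 50.5% ± 4.05. Ifi35 was at 120, 103 and 113 TPM, and a transcript marked for nonsense-mediated decay took 36.6% ± 2.26 of it. Ifi35 overlaps Gm11626 on the opposite strand over 16.8% of its exonic bases, and its count differed by up to 2.34 reads between the same estimates.

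Bst2, which encodes the virion tether tetherin, averaged 60.1 ± 2.55 TPM. Xaf1, linked to cell death, averaged 25.03 ± 3.76 TPM and Rtp4, an inhibitor of flavivirus replication, 20.8 ± 1.38 TPM. Ifi44 was the lowest of the 39 genes at 0.82, 0.70 and 0.84 TPM, from 14, 21 and 21 counts.

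Across all 39 genes the most abundant transcript was protein-coding in 36, the exceptions being Irf7, Ifi27 and Oasl2. Transcripts annotated as protein-coding took under 50% of the TPM in 5 genes, which were Irf7 (31.0%), Oasl2 (41.9%), Mx1 (39.9%), Mx2 (36.7%) and Ifi44 (49.7%). The value of Mx2 leaves out transcripts of 656 and 579 codons annotated as polymorphic pseudogene. The transcript of 656 codons took 100% of Mx2 in library 1, so the low share of Mx2 reflects that annotation. For low genes the split between transcripts moved strongly between libraries of the same biological replicate. The leading Oas2 transcript took 85.1%, 18.9% and 17.4%, that of Oasl1 87.5%, 35.1% and 16.2%, and that of Gbp3 0%, 66.6% and 79.6%. For these genes the TPM of the gene is steadier than that of any 1 transcript.

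**Figure D3:**
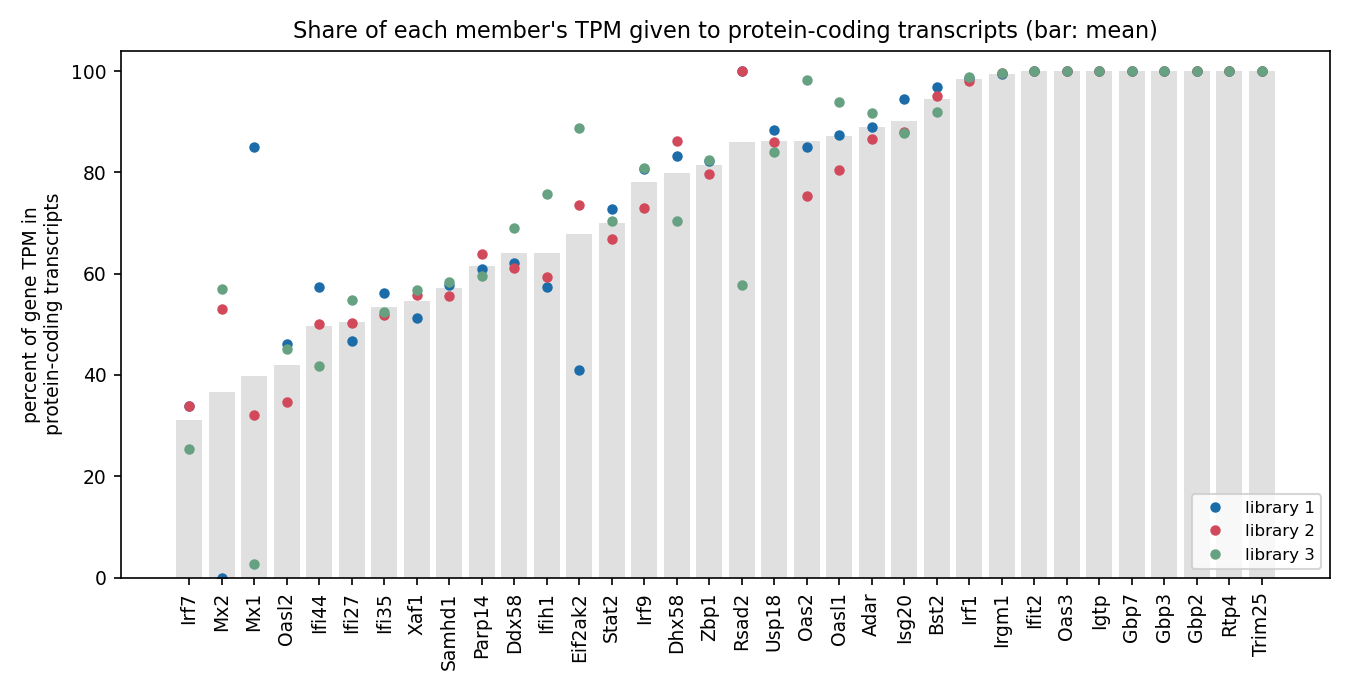
Percent of each gene's TPM assigned to transcripts annotated as protein-coding (vertical) for the genes with more than 1 annotated transcript (horizontal), with 1 point per library and a grey bar at the mean. Transcripts annotated as polymorphic pseudogene, as in Mx2, are not counted even where they hold a coding sequence. Irf7 is the lowest at 31.0%, Mx1, Mx2 and Eif2ak2 scatter widely between libraries, and 10 genes at the right are near 100%.

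A count that is not whole shows that reads were divided by estimate, as happens between paralogs. With a tolerance of 0.01 read, 19 of the 39 genes (48.7%) had such a count in at least 1 library, against 4613 of 9823 detected protein-coding genes (47.0%), so the share was close to that of genes in general. By role these were 6 of the 7 GTPases, 4 of the 7 effectors on RNA and nucleotides, 3 of the 4 modifiers, 2 of the 4 transcription factors, 2 of the 5 sensors, 1 of the 5 oligoadenylate synthetases and 1 of the 7 other effectors. In only 4 genes did the 2 deposited estimates differ by over 1 read or 10%, which were Oas1a, Gbp7, Igtp and Ifi35. The difference was at most 1.03 reads for Igtp, of which 12.3% of words occur in its neighbour Irgm2. Paralogs were the main partner for Oas1a, Ifit3, Ifit1 (7.13% of words shared, mainly with Ifit1bl2), the Mx genes, Gbp2, Gbp3, Gbp7, Igtp and Ifi27l2a (0.483% with Ifi27l2b). Exons of another gene on the opposite strand overlapped 9 of the 39 genes, and exons on the same strand overlapped 5. Igtp was among the latter, since 8.01% of its exonic bases also lie in exons of Irgm2. The words it shares with Irgm2 may thus come partly from a stretch annotated to both genes.

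**Figure D4:**
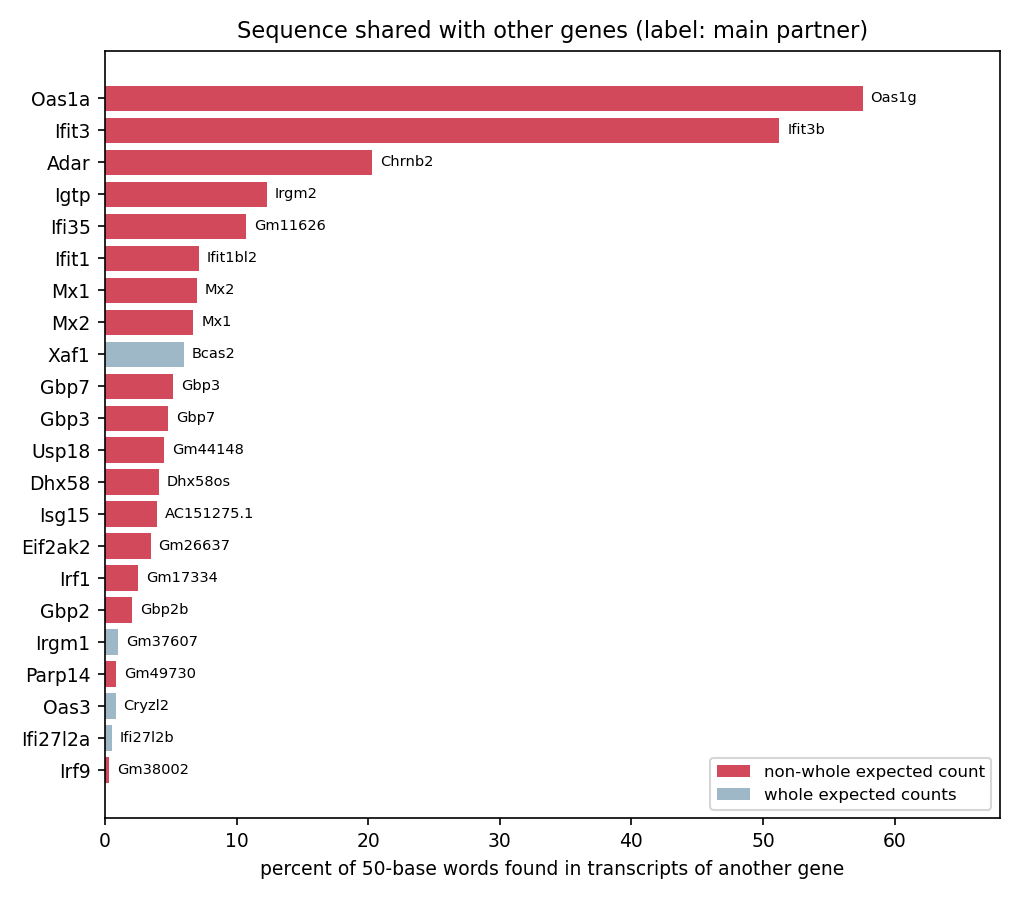
Percent of the 50-base words of each gene's main transcript that occur in transcripts of another gene (horizontal), for the genes that share any, with the main partner written beside each bar and red for genes with a non-whole expected count. Words were compared on both strands, so overlap with a gene on the opposite strand is included. Oas1a (57.6%) and Ifit3 (51.2%) stand far above the rest, and most red bars lie under 10%.

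The labels call the libraries technical replicates of 1 biological replicate, so differences between them were taken as technical spread. The p-values set this spread against counting error only. Each gene with a mean of at least 10 counts was tested for equal abundance in the 3 libraries by a chi-square test of homogeneity on rounded expected counts with TMM scaling, a scaling by a trimmed mean of log ratios, and Benjamini-Hochberg adjustment over 13090 genes. Of the 38 interferon-stimulated genes tested, 13 had an adjusted p under 0.05 (34.2%), beside a background of 40.0% of all genes tested. Mx1 was under the count minimum. The median ratio of the highest to the lowest scaled count was 1.18 over the 38 genes and 1.20 over all genes tested.

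The largest called differences were in 2 modifiers, both highest in library 2 and lowest in library 3. Trim25 had scaled counts of 2012, 2681 and 1639, a 1.64-fold range (adjusted p = 2.4e-59, chi-square test), and Parp14 had 1247, 1541 and 999 (1.54-fold, adjusted p = 4.3e-26). Of the 13 genes, these 2 were called whichever library was left out. Ifi27l2a was also highest in library 2 (scaled counts 629, 698 and 574, adjusted p = 0.00578). Called genes with their highest value in library 2 were thus 3 of 38 (7.89%, background 18.2%).

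Library 2 was the lowest for 8 called genes of 38 (21.1%, background 17.4%). They were Irf1, Irf7, Ifit1, Samhd1, Gbp7, Igtp, Irgm1 and Usp18. Igtp had scaled counts of 7407, 6429 and 7589 (adjusted p = 3.7e-24), Usp18 had 313, 229 and 315 (adjusted p = 0.000681), and Irf7 had 1694, 1478 and 1605 (adjusted p = 0.00259). Irf1 and Samhd1 were called with ranges of only 1.08-fold and 1.05-fold (adjusted p = 0.000111 and 0.0295), which their 23481 and 18424 counts made detectable. Gbp7 had a 1.22-fold range with its highest value in library 3 (adjusted p = 7.7e-08), as had Ifit1 with 1.45-fold (adjusted p = 0.0259), and Irgm1 was near the threshold (adjusted p = 0.0492). Adar (1.20-fold, adjusted p = 3.0e-10) and Zbp1 (1.12-fold, adjusted p = 0.0309) were lowest in library 3. The call of Zbp1 was lost with scaling by library totals (adjusted p = 0.0662) and without library 2 (0.0649) or library 3 (0.968). Without library 2, 4 of the interferon-stimulated genes were called (background 14.7%), and without library 3, 7 were (background 27.6%). The part of the ribosomal content of library 2 in these calls was not tested.

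**Figure D5:**
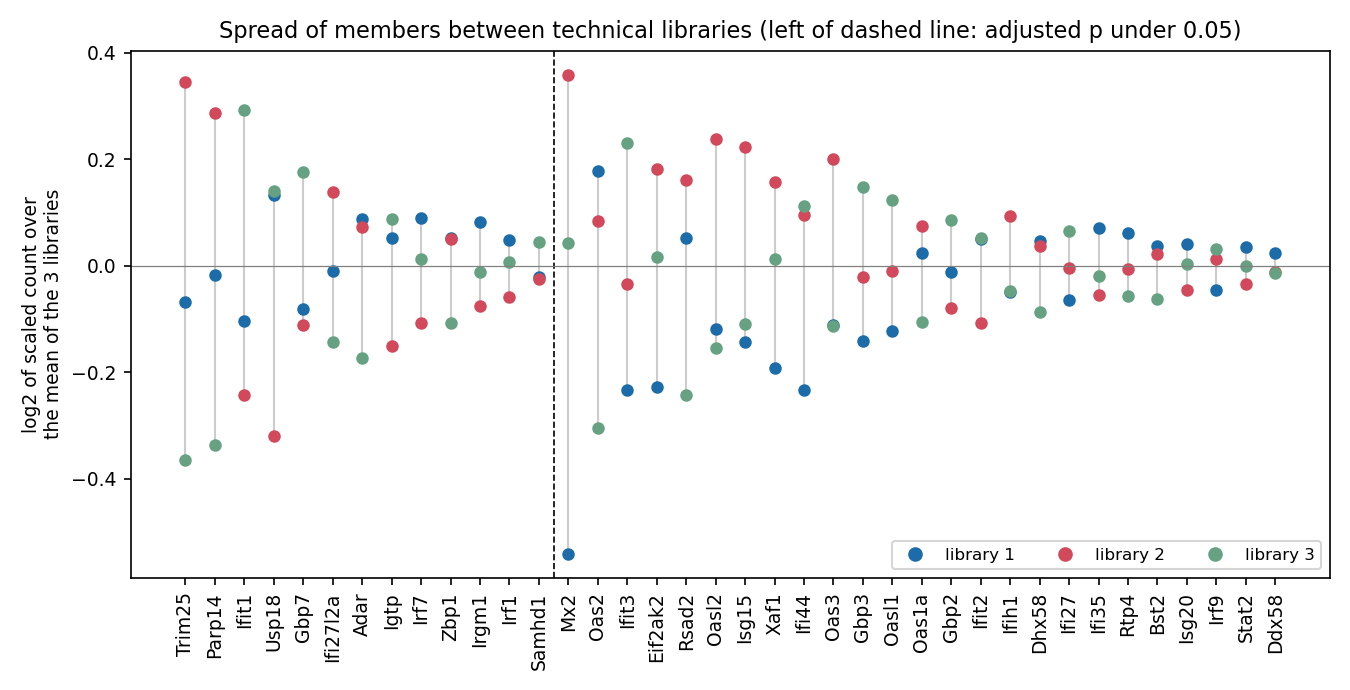
Log2 of the scaled count of each library over the mean of the 3 libraries (vertical) for the 38 genes tested (horizontal), with the 13 genes of adjusted p under 0.05 left of the dashed line, each side ordered by range. Trim25 and Parp14 have the widest ranges among the called genes, with library 2 on top, while Mx2, right of the line, has a wider range from low counts.

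The machinery upstream of these genes was present in the same libraries, while none of the 7 interferon genes on the list was detected at 1 TPM. Of a list of 33 pathway genes 23 were detected, and 10 of the 23 tested were called between libraries (background 40.0%). Among receptors and kinases 8 of 9 were detected. Ifngr1, the ligand-binding chain of the interferon gamma receptor, was at 1208, 1044 and 1262 TPM and the kinase gene Jak1 at 894, 776 and 861 TPM. Ifnlr1, the receptor chain for type III interferon, was at 0.03, 0 and 0.12 TPM.

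All 5 other interferon regulatory factors were detected, with Irf3 at 126, 138 and 141 TPM, Irf2 at 96.4, 92.1 and 102 TPM and Irf5 lowest at 2.34, 1.93 and 1.83 TPM. Of 8 sensing adaptors and kinases 6 were detected. Ikbke (214, 183 and 204 TPM) and Tbk1 (69.6, 61.9 and 74.0 TPM), kinases that activate IRF3 and IRF7, were the highest, and Tlr9, the endosomal DNA receptor, had 0 counts in each library, which allows up to 3 counts per library. All 4 inhibitors were detected. Socs3 was at 166, 147 and 152 TPM and Pias1 at 164, 129 and 161 TPM, while Socs1, the main brake on JAK signalling downstream of interferon gamma, was lowest at 32.6, 25.2 and 29.8 TPM.

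Of 7 interferon genes none reached 1 TPM in every library. Ifng was the highest with 4, 3 and 0 counts (0.40, 0.31 and 0 TPM) and Ifnb1 next with 0, 2 and 1 counts. Ifnl2 had 1 count in all, and Ifna2, Ifna4, Ifnk and Ifnl3 had 0 in each library.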

How the data were processed

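For each library the authors deposited gene and transcript tables with expected counts (read numbers estimated by the quantifier) and TPM, both as maximum-likelihood and as posterior mean estimates. Isoform percent, the part of the gene's TPM that falls to a transcript, was deposited in percent, per the file headers. A further deposited table holds whole-number counts on the older GENCODE M4 annotation. Per the labels the assembly was mm10. Neither the aligner nor the counting tool, their versions or the use of strand is given in the sources used here. Deposited FPKM were not used.

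Symbols came from GENCODE M21. The members and lists were chosen with earlier results of these data known. All 39 genes are named; values of every library are given for the highest and lowest gene of each role, for genes in compared pairs, for those called between libraries and for those whose 2 estimates differ by over 1 read or 10%; of the pathway list, the highest 2 and the lowest of each set are named. Rows that name no gene (0.247%, 0.200% and 0.325% of expected counts) were left out. Expected counts were rounded, scaled by TMM (edgeR 4.0.16, R 4.3.3; alternatives were library totals and DESeq2 1.42.0 size factors) and tested per gene for homogeneity by chi-square (scipy 1.17.1), with p-values adjusted by the Benjamini-Hochberg method at a threshold of 0.05. The test was run on simulated counts that held counting error only, with differences planted in library 2. It called 7 of 12752 genes without a planted difference, 20 of 49 at 1.25-fold and 46 of 50 at 4-fold. Such counts cannot show how the test behaves on libraries with further technical spread. Log2 ratios used TPM + 0.1. Pooled ratios carry exact Clopper-Pearson intervals, for counting error only. Shared words are runs of 50 bases compared, on both strands, over all annotated transcripts. The B cell marker list is not reported here.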

Additional observations from a re-analysis of the deposited data

How the results depend on the processing

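Of the 39 genes, 36 were detected in the reported setting, 38 at 0.5 TPM, 28 at 5 TPM and 39 with posterior mean TPM, and 36 to 37 when a library was left out. Of the 38 genes tested, 13 were called between libraries; the number was 6 with counts on the older annotation (background 18.9%), 10 with no filter on low counts (background 15.5%, with many genes of few counts in it) and 4 to 12 when a library was left out (backgrounds 36.8%, 14.7% and 27.6% without library 1, 2 and 3). The share of these genes was thus under the background in the reported setting and above it without the filter. Zbp1 was lost with library totals (adjusted p = 0.0662). The median of 20.8 TPM became 25.7 over detected genes only, 26.9 after rescaling over protein-coding genes without mitochondrial and ribosomal protein genes, and 18.5 with posterior mean TPM. With posterior mean TPM the role medians were 93.9 TPM for transcription factors, 3.20 for oligoadenylate synthetases, 14.1 for effectors on RNA and nucleotides, 25.1 for GTPases, 19.9 for modifiers and 52.4 for other effectors, and the long Adar share was 64.1%. The log2 ratio of Mx1 to Mx2 was 0.50 with posterior mean TPM and ran from -0.47 to 0.44 when a library was left out, the latter without library 3, so its sign changed in both. With counts on the older annotation, which carry no length correction, the signs changed for Oas1a to Oas2 (-0.97), Oas3 to Oas2 (0.29) and Oasl1 to Oasl2 (0.22), and 10 of the 14 pairs moved beyond their spread and 1 did not. The moved values were 1.76 for Ifit1 to Ifit3, 3.57 for Ifit2 to Ifit3, 1.52 for Igtp to Irgm1, 1.42 for Ifi27 to Ifi27l2a, 1.14 for Irf1 to Stat2, 1.93 for Usp18 to Isg15, 3.11 for Ddx58 to Ifih1, -2.12 for Gbp3 to Gbp7, -0.04 for Irf7 to Irf9 and -1.54 for Mx1 to Mx2. The part of length correction in this was not tested. A tolerance of 0.5 for whole counts was not run, since no value lies farther than that from a whole number; a tolerance of 0.1, chosen after seeing the data, gave 16 genes in place of 19. No paired analysis was possible because there is 1 group. Genes under about 25 counts in all, such as Mx1, are limited by depth.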

Other observations

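The counts on the older annotation gave a median of 59.4% of the expected counts over the 39 genes, beside 51.5% over all genes tested that both tables hold. Irf1 was far below this, with 1510, 1549 and 1590 counts against expected counts of 7209, 8002 and 8269 (19.8%), and so were Igtp (28.1%) and Ifit3 (29.4%). Igtp shares 12.3% of its words with Irgm2, and Ifit3 shares 51.2% with Ifit3b. Oas1a, which shares 57.6% of its words, was at 44.6%, and Ifit2, which shares none, was at 39.7%. Irf1 shares 2.49% of its words with another gene, Gm17334, which overlaps it on the opposite strand. The cause was not tested.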
